A study of Homo sapiens with 13 samples.

Results

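The genes described here encode the plasminogen activator system and were chosen by name, with earlier results of these data known. They are the activators PLAU and PLAT, the receptor PLAUR, and the inhibitors SERPINE2 and TFPI2. Each of these 5 genes had 1 row of the array table that carries its symbol alone, out of 18377 genes tested in all. Every value below is a log2 RMA value, so that a difference of 1 is a doubling of signal, and a fold change is the first-named group minus the second. The series design lists 13 flasks, each hybridised to 1 Affymetrix whole-transcript array. HepG2S1 is a line made from HepG2, a human hepatoblastoma line, by raising the sorafenib dose stepwise over months, and it was kept in the drug thereafter. Sorafenib is an inhibitor of several kinases that is used against liver cancer. The groups were HepG2S1 with 6 µM sorafenib at 20% O2 (n = 4), HepG2S1 withdrawn from sorafenib at 20% O2 (n = 3), HepG2S1 with 6 µM sorafenib at 2% O2 (n = 3), and HepG2 without sorafenib at 20% O2 (n = 3), each harvested after 72 h. All flasks shared a medium with serum, insulin and dexamethasone. The labels do not say whether HepG2S1 is 1 clone, whether HepG2 flasks received the DMSO in which the drug was dissolved, or whether the flasks came from separate cultures, and the p-values rest on the variation among flasks, which may be technical.

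Plasminogen, made by the liver, is cut to the protease plasmin by urokinase (PLAU) or tissue-type plasminogen activator (PLAT). Urokinase bound to its lipid-anchored receptor (PLAUR) makes plasmin at the cell surface, where plasmin degrades fibrin and matrix proteins and activates other proteases and growth factors. Serpins such as protease nexin-1 (SERPINE2) trap the activators, and the Kunitz-type inhibitor TFPI2 blocks plasmin and the tissue factor complex. In liver tumours the urokinase system is known for its link with invasion.

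Within a group, arrays had pairwise correlations of 0.995 to 0.998 over all 28926 rows of the table, and HepG2S1 arrays correlated with HepG2 arrays at 0.913 to 0.923. Of 11 hepatocyte markers measured, all 11 were lower in HepG2S1 with sorafenib than in HepG2, and the mean level of the list on an array was 6.10 to 6.20 in HepG2S1 with sorafenib, 6.05 to 6.14 in withdrawn HepG2S1, 5.99 to 6.08 at 2% O2 and 12.26 to 12.31 in HepG2. ALB, AFP, APOH and FGB averaged under 5.76 (the median, over arrays, of the lower quartile of signals) in all HepG2S1 groups, so that these defining hepatocyte markers were near the floor in HepG2S1. Markers of fibroblasts and stellate cells averaged 8.20 to 8.25 in HepG2S1 with sorafenib and 6.86 to 7.02 in HepG2. Of these 10, 4 were higher and 1 lower, against 30.1% and 27.2% of all genes. DCN, LUM and FAP carried the list mean, with log2 fold changes of 5.43, 5.01 and 3.75. Their means in HepG2 lay below 5.76, so that these sizes depend on the floor. ACTA2 was lower (9.03 in HepG2S1 with sorafenib and 11.02 in HepG2), and the median log2 fold change of the list was 0.07. Squamous markers averaged 8.27 to 8.31 and 6.23 to 6.42 in the same order of groups, with 2 of 4 higher and a median log2 fold change of 0.57. SERPINB5 carried most of that gap (mean 11.83 in HepG2S1 with sorafenib and 5.03, near the floor, in HepG2). KRT14 and DSG3 did not pass the test. Of 5 leukocyte markers CD68 was higher (0.79 ± 0.06), CD14 lower (-0.56 ± 0.11), and PTPRC lay below 5.76 in every group. Of 6 endothelial markers none was higher and 4 were lower in HepG2S1 with sorafenib. Among the lower ones KDR lay near the floor (mean 5.69 in HepG2S1 with sorafenib and 5.88 in HepG2). Its call was lost without HepG2 replicate 2 (limma, adjusted p = 0.0961). The part of these differences between the lines in the results below was not tested. In bulk RNA, fewer cells that express a gene and less RNA per cell cannot be told apart.

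PLAUR was the 1 member of the system that was higher in HepG2S1 than in HepG2, while the other 4 genes were lower in HepG2S1 with sorafenib. At 2% O2 PLAUR rose further and SERPINE2 fell, and no member passed the test on withdrawal of the drug. In limma, with Benjamini-Hochberg adjustment over all genes and a threshold of 0.05, 1 of 5 members was called higher and 4 lower in HepG2S1 with sorafenib against HepG2. Of all genes 30.1% were called higher and 27.2% lower in that comparison. With 0 of 5 members called on withdrawal, 0 had an unadjusted p under 0.05, against 10.1% of all genes called higher and 7.90% lower. At 2% O2 against 20% O2, both with the drug, 1 of 5 members was called higher and 1 lower, against 8.99% and 6.17% of all genes. That background depended on the scaling: 59.3% of the genes called were higher at 2% O2 as deposited, and 35.1% when arrays were shifted to a common 75th percentile.

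**Figure D1:**
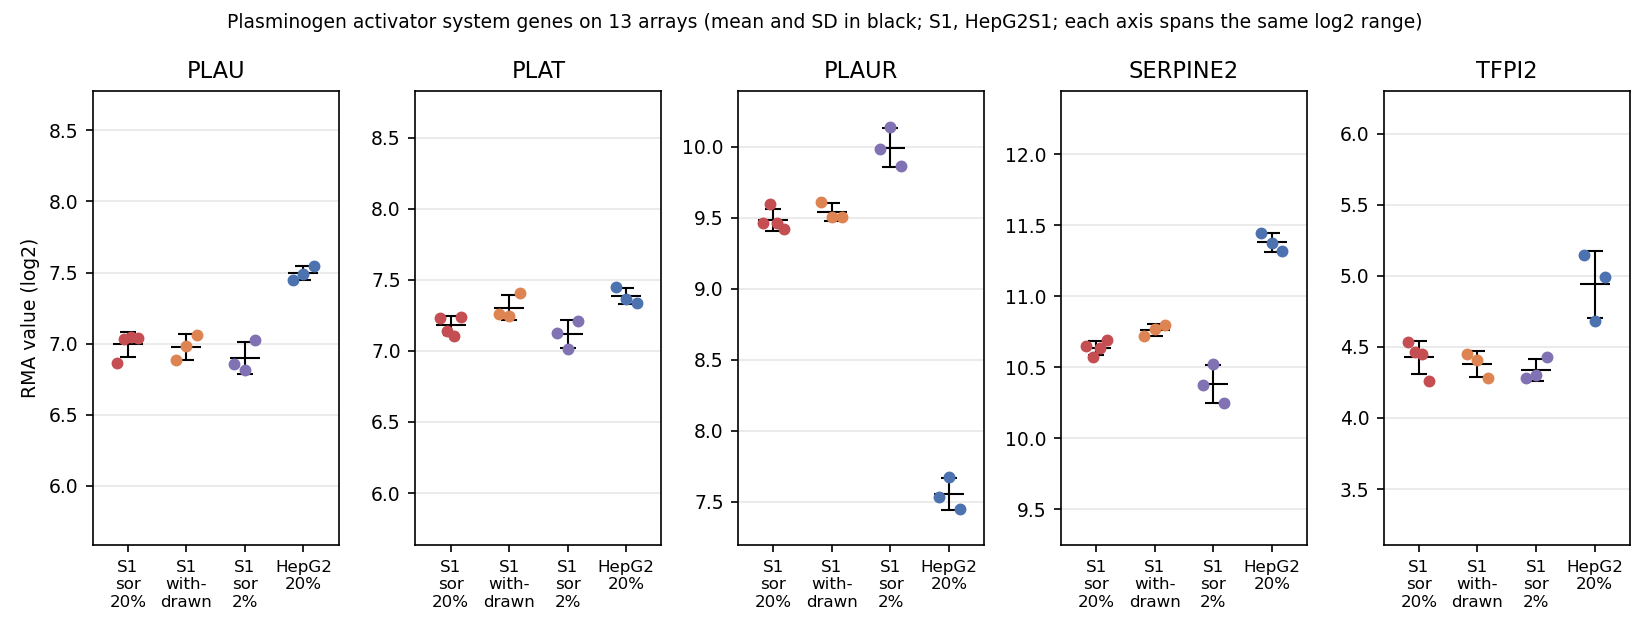
Log2 RMA value (vertical axis) of the 5 genes on the 13 arrays, with each dot 1 array and the mean and SD of a group in black. The groups are HepG2S1 (S1) with sorafenib at 20% O2, withdrawn HepG2S1, HepG2S1 with sorafenib at 2% O2, and HepG2; all panels span the same log2 range. PLAUR is the only panel in which the HepG2 arrays, at 7.45 to 7.68, lie under the HepG2S1 arrays.

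PLAU, urokinase, is the secreted serine protease that cuts plasminogen. It had values of 6.86, 7.03, 7.05 and 7.04 in HepG2S1 with sorafenib, 6.88, 6.98 and 7.06 in withdrawn HepG2S1, 6.85, 6.82 and 7.03 at 2% O2, and 7.45, 7.49 and 7.55 in HepG2. All 10 HepG2S1 arrays lay below all 3 HepG2 arrays, and the 3 HepG2S1 groups overlapped. PLAU was lower in HepG2S1 with sorafenib than in HepG2 by a log2 fold change of -0.50 ± 0.07 (SE; limma, adjusted p = 8.66e-06). Withdrawal gave -0.02 (95% interval -0.16 to 0.12) and 2% O2 gave -0.10 (-0.24 to 0.05), both against HepG2S1 with the drug at 20% O2. So the order of PLAU levels was HepG2 above the HepG2S1 groups, whose own order did not exceed their spread.

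PLAT, tissue-type plasminogen activator, is the main activator of fibrin-bound plasminogen in blood. Its values were 7.23, 7.14, 7.10 and 7.24 in HepG2S1 with sorafenib, 7.26, 7.25 and 7.40 in withdrawn HepG2S1, 7.13, 7.01 and 7.21 at 2% O2, and 7.45, 7.37 and 7.34 in HepG2. This was the narrowest spread of group means among the 5 genes. The difference of -0.20 ± 0.06 (SE) between HepG2S1 with sorafenib and HepG2 passed the test (limma, adjusted p = 0.0105), with no overlap of arrays, but not without HepG2 replicate 1 (adjusted p = 0.0501). Withdrawn cells overlapped with HepG2 (-0.08 ± 0.07, adjusted p = 0.338). Withdrawal itself gave 0.12 (95% interval -0.01 to 0.26, adjusted p = 0.214), although the arrays of the withdrawn and drug-exposed cells did not overlap, and 2% O2 gave -0.06 (-0.20 to 0.07). No neighbours in the order of the 4 groups passed the test, and only the pairs of HepG2 with either drug-exposed group did.

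PLAUR, the urokinase receptor, concentrates urokinase at the cell surface and signals through integrins and growth factor receptors. It had values of 9.46, 9.60, 9.47 and 9.42 in HepG2S1 with sorafenib, 9.61, 9.50 and 9.50 in withdrawn HepG2S1, 9.98, 10.14 and 9.86 at 2% O2, and 7.54, 7.68 and 7.45 in HepG2. The HepG2S1 arrays lay far above the HepG2 arrays, and the arrays at 2% O2 above all others. PLAUR averaged 9.49 ± 0.08 (SD, n = 4) in HepG2S1 with sorafenib and 7.56 ± 0.11 (SD, n = 3) in HepG2, a log2 fold change of 1.93 ± 0.07 (SE), which is 3.81-fold (limma, adjusted p = 2.31e-12). Of all 18377 genes, 2.76% had a larger rise in that comparison.

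At 2% O2 PLAUR averaged 9.99 ± 0.14 (SD, n = 3), which was higher than in HepG2S1 with sorafenib at 20% O2 by 0.51 ± 0.07 (SE), or 1.42-fold (limma, adjusted p = 0.000279). A larger rise was found in 2.03% of genes. It was also higher at 2% O2 than in withdrawn cells, by 0.45 ± 0.08 (limma, adjusted p = 0.000808). That pair differs in both oxygen and drug, which cannot be told apart in it. Withdrawal gave 0.05 (95% interval -0.10 to 0.21, adjusted p = 0.703), so that from low to high the order was HepG2, then the HepG2S1 groups at 20% O2, which did not differ beyond their spread, then the cells at 2% O2. Against HepG2, PLAUR was 3.95-fold higher in withdrawn HepG2S1 and 5.41-fold higher in HepG2S1 at 2% O2.

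The promoter window of PLAUR is shown because this gene rose in HepG2S1 and again at 2% O2. It runs from 250 bases before the RefSeq gene start to 50 after, in GRCh38.p14, at chr19:43670120-43670419 on the minus strand. Capitals mark matches, on either strand, to TGANTCA, the site of AP-1, and to ACGTG and GCGTG, the core of the hypoxia response element bound by HIF. The windows were also searched for CCGGAAGT, a single form of the site of ETS factors, with no match in this one. Other forms of the ETS site were not searched. The GC box bound by SP1, written GGGCGG, has none here either. The TATA box, a core promoter element with the letters TATAAA, is likewise without a match.

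PLAUR: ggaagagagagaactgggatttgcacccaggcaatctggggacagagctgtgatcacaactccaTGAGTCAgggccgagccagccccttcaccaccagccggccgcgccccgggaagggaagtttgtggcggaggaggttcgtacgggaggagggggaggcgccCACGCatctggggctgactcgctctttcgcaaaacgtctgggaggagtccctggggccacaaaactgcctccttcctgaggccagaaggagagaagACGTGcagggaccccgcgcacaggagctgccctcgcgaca

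The AP-1 match begins 186 bases before the gene start, and 7.71% of the 35116 promoter windows of the RefSeq table hold that motif. Of the hypoxia cores, the form with A first lies within the bases after the start, and the form with G first begins 86 bases before it, on the opposite strand. The A form is present in 21.4% of windows and the G form in 36.5%, on either strand. Matches to the searched form of the ETS site were found in 4.14% of windows and to the TATA box in 11.5%. Such matches describe the letters of the window and are not evidence of binding.

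SERPINE2, protease nexin-1, is a serpin that inhibits thrombin, urokinase and plasmin at the cell surface. Its values were 10.65, 10.57, 10.63 and 10.69 in HepG2S1 with sorafenib, 10.72, 10.77 and 10.80 in withdrawn HepG2S1, 10.38, 10.52 and 10.25 at 2% O2, and 11.44, 11.37 and 11.32 in HepG2. No groups overlapped, with the cells at 2% O2 lowest, then drug-exposed cells at 20% O2, withdrawn cells and HepG2. SERPINE2 averaged 10.64 ± 0.05 (SD, n = 4) in HepG2S1 with sorafenib and 11.38 ± 0.06 (SD, n = 3) in HepG2, a log2 fold change of -0.74 ± 0.06 (SE; limma, adjusted p = 4.78e-08).

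The step from 20% to 2% O2 ran opposite to that of PLAUR. SERPINE2 fell by 0.25 ± 0.06 (SE) on the log2 scale at 2% O2 (limma, adjusted p = 0.0148), a call that was lost without replicate 1 or replicate 3 of the 2% O2 group (adjusted p = 0.0529 and 0.0609). Against withdrawn cells, which differ in drug as well as oxygen, SERPINE2 at 2% O2 was at -0.38 ± 0.07 (limma, adjusted p = 0.00108). The higher values on withdrawal, 0.13 ± 0.06, did not pass the test (95% interval -0.01 to 0.26, adjusted p = 0.210). Against HepG2 the log2 fold change was -0.62 ± 0.07 in withdrawn HepG2S1, and SERPINE2 was 1.99-fold lower at 2% O2.

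SERPINE2 has 2 RefSeq start sites, whose windows are shown since it was the other member that changed at 2% O2. Window 1 lies at chr2:224031429-224031728 and window 2 at chr2:224038591-224038890, both on the minus strand of GRCh38.p14. Capitals mark the same motifs as for PLAUR, together with the GC box.

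SERPINE2 window 1: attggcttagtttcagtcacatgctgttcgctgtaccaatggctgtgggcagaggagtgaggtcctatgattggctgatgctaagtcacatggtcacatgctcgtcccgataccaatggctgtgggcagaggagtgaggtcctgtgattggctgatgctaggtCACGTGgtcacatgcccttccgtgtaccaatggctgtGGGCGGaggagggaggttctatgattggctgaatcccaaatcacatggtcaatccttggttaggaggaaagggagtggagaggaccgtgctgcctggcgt

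SERPINE2 window 2: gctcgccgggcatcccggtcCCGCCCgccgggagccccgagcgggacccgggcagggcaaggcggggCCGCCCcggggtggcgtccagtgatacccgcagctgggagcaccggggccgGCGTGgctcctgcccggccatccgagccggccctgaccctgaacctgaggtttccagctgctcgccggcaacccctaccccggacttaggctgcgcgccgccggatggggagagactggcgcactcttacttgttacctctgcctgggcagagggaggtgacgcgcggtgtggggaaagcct

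Window 1 holds CACGTG, whose ACGTG reads on both strands from 87 bases before the start, and 1 GC box. Window 2 holds GCGTG once, 132 bases before the start, and 2 GC boxes, a motif found in 45.0% of all windows. Neither window has an AP-1 match. PLAU has 2 windows as well, 1 with no match to any motif searched and 1 with 3 GC boxes and 1 GCGTG, and the TFPI2 window has 1 AP-1 match and 2 GC boxes.

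TFPI2, a Kunitz-type protease inhibitor of the extracellular matrix, had values of 4.54, 4.46, 4.45 and 4.26 in HepG2S1 with sorafenib, 4.45, 4.41 and 4.28 in withdrawn HepG2S1, 4.28, 4.30 and 4.43 at 2% O2, and 5.14, 4.68 and 4.99 in HepG2. All 13 arrays lay below 5.76, under that lower quartile of signals, and the table has no detection calls. The HepG2S1 arrays lay below the HepG2 arrays, with a log2 fold change of -0.51 ± 0.09 (SE; limma, adjusted p = 0.000212) for HepG2S1 with sorafenib. HepG2 had the widest spread, 0.23 (SD, n = 3). Array signals flatten at this level, so that the size of the difference is not settled, and withdrawal (-0.05 ± 0.09) and 2% O2 (-0.09 ± 0.09) gave values within the spread.

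**Figure D2:**
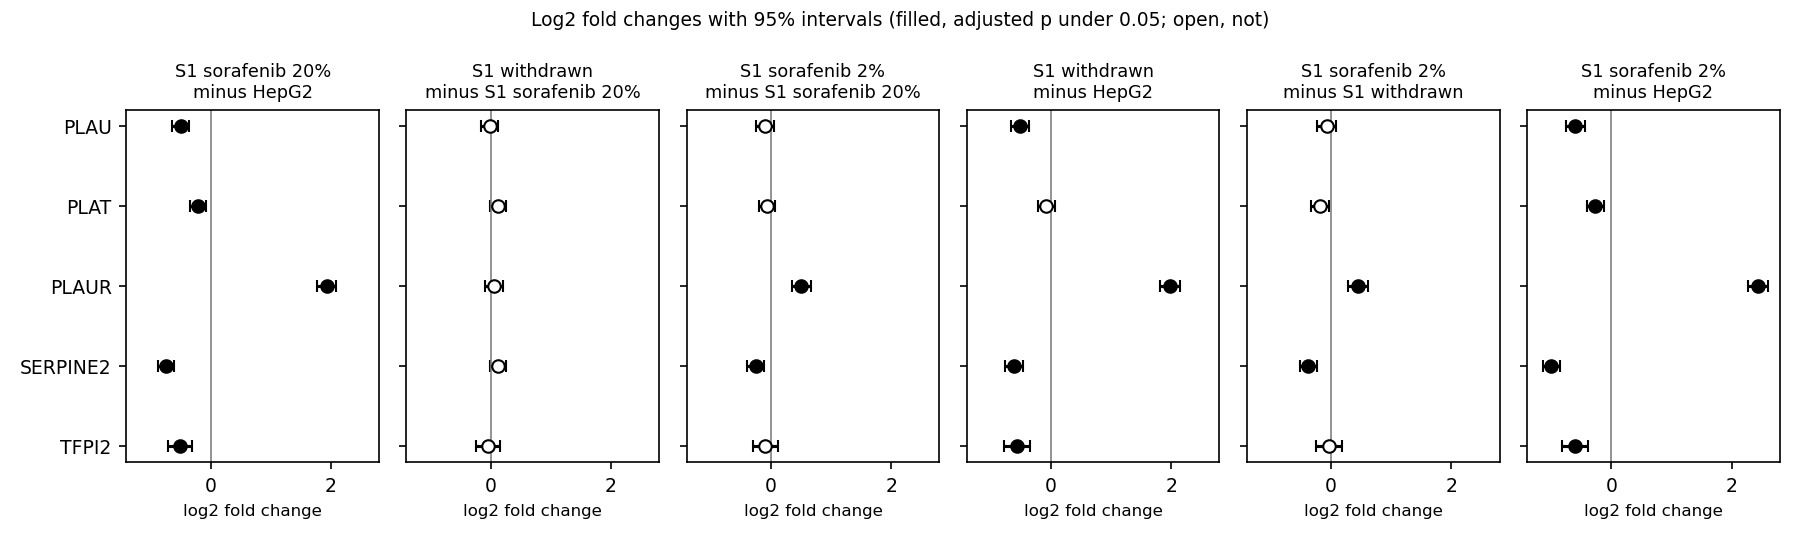
Log2 fold changes of the 5 genes (horizontal axis, first-named group minus the second) with 95% intervals from the limma fit, for the 6 pairs of groups. Filled points passed an adjusted p of 0.05 and open points did not; PLAUR lies at 1.93, 1.98 and 2.44 against HepG2, and at 0.51 and 0.45 in the pairs of 2% O2 with a group at 20% O2.

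The remaining pairs share arrays with those above and are given side by side. Withdrawn HepG2S1 against HepG2, both without drug in the medium, had 1 of 5 members higher and 3 lower, against 29.6% and 27.0% of all genes. PLAU was at -0.52, PLAUR at 1.98, SERPINE2 at -0.62 and TFPI2 at -0.56 in that pair on the log2 scale. HepG2S1 at 2% O2 against HepG2 had 1 higher and 4 lower, against 30.6% and 30.6% of all genes, with PLAU at -0.60, PLAT at -0.27 and TFPI2 at -0.60. Cells at 2% O2 with the drug against withdrawn cells had PLAUR higher and SERPINE2 lower, against 10.8% and 7.73% of all genes, and PLAT at -0.19 ± 0.07 did not pass (limma, adjusted p = 0.0689). The share of higher genes among those called moved with the 75th percentile scaling to 40.0% from 50.0% for 2% O2 against HepG2, and to 48.2% from 58.4% for 2% O2 against withdrawal.

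The first comparison, of HepG2S1 with sorafenib against HepG2, addresses how the resistant line under drug differs from its parent. PLG, the inhibitors A2M and SERPINF2 and the fibrinogen chains were lower in HepG2S1, and ANXA2, CAV1 and the integrin chains ITGA5 and ITGA3 were higher. Line and drug history change together here and cannot be told apart. The lists were chosen with earlier results of these data known, and each count is read against the 30.1% higher and 27.2% lower among all genes, whose median log2 fold change was 0.01.

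Of 6 genes for plasminogen, its receptor and contact activation, 1 was higher and 4 were lower (median -0.41). With genes under the 33rd percentile of mean signal left out, 0 lower calls remained on this list. PLG, plasminogen, averaged 5.82 ± 0.09 (SD, n = 4) in HepG2S1 with sorafenib and 7.89 ± 0.14 (SD, n = 3) in HepG2, a log2 fold change of -2.07 ± 0.10. KNG1, kininogen, was at -3.69 ± 0.07, and PLGRKT, a membrane receptor of plasminogen, rose by 0.50 ± 0.06. Of 14 inhibitors of the activators and of plasmin, 11 were lower and 2 higher (median -2.30). With low genes left out in the same way, 7 lower calls remained among the inhibitors. A2M, the broad protease inhibitor alpha-2-macroglobulin, was at -7.13 ± 0.05, CPB2, which removes plasminogen binding sites from fibrin, at -6.78 ± 0.07, and SERPINF2, the main plasmin inhibitor of plasma, at -3.75 ± 0.08. In HepG2S1 KNG1 (mean 5.17) and CPB2 lay below 5.76 and PLG close to it, a range in which array signals flatten, so that these sizes depend on the floor.

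Of 12 receptors and clearance receptors 4 were higher and 5 lower (median -0.02). ANXA2 and S100A10, which together bind plasminogen and PLAT at the cell surface, rose by 1.93 ± 0.05 and 1.28 ± 0.06. LRP1, the endocytic receptor that clears inhibited urokinase together with its receptor, was at -1.85 ± 0.07 and the related VLDLR at -1.42 ± 0.09. MRC2, a collagen receptor that associates with the urokinase receptor, rose by 0.77 ± 0.07.

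Among 15 partners of the urokinase receptor 5 were higher and 6 lower (median -0.04). CAV1, caveolin-1, rose by 5.83 ± 0.11, and the integrin chains ITGA5 and ITGA3 by 3.78 ± 0.08 and 3.30 ± 0.05. VTN, vitronectin, the matrix ligand of the receptor that the liver secretes, was at -3.57 ± 0.08. Each of these genes was named for its large change, so that the lack of overlap between the lines adds nothing further.

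Of 22 proteases that activate or follow the cascade 4 were higher and 11 lower (median -0.29). The coagulation zymogens F2, F11 and F10 were at -4.28 ± 0.06, -4.25 ± 0.07 and -3.89 ± 0.08, and PRSS23, a secreted serine protease, rose by 3.26 ± 0.12 against a mean of 5.21 in HepG2 that lies near the floor. HPN, hepsin, a membrane protease that can activate urokinase, was at -2.20 ± 0.07. ST14, matriptase, another activator of urokinase, did not pass (-0.20 ± 0.10, limma, adjusted p = 0.101), and passed without replicate 4 of HepG2S1 with sorafenib (adjusted p = 0.00567).

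Of 20 substrates 7 were higher and 8 lower (median -0.01), and the 3 fibrinogen chains FGA, FGB and FGG were at -7.44, -7.33 and -7.15, all below 5.76 in HepG2S1. In the tissue factor and protein C list 4 of 10 were higher and 3 lower (median 0.08). PROC, protein C, was at -5.06 ± 0.08, TFPI, which inhibits tissue factor as TFPI2 does, at -1.35 ± 0.10, and PROCR, the receptor of protein C, rose by 1.93 ± 0.06. F3, tissue factor, rose by 0.85 ± 0.08. A list of 13 transcription factors held AP-1 and ETS factors, and also SP1 and RELA, which are in neither family. AP-1 and ETS are families known to act on the PLAU and PLAUR promoters. Of the 13, 5 were higher and 7 lower (median -0.22). ETS1 rose by 1.42 ± 0.07, FOSL2 by 1.35 ± 0.05 and ETS2 by 1.19 ± 0.05, while ETV4 was at -1.83 ± 0.07.

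**Figure D3:**
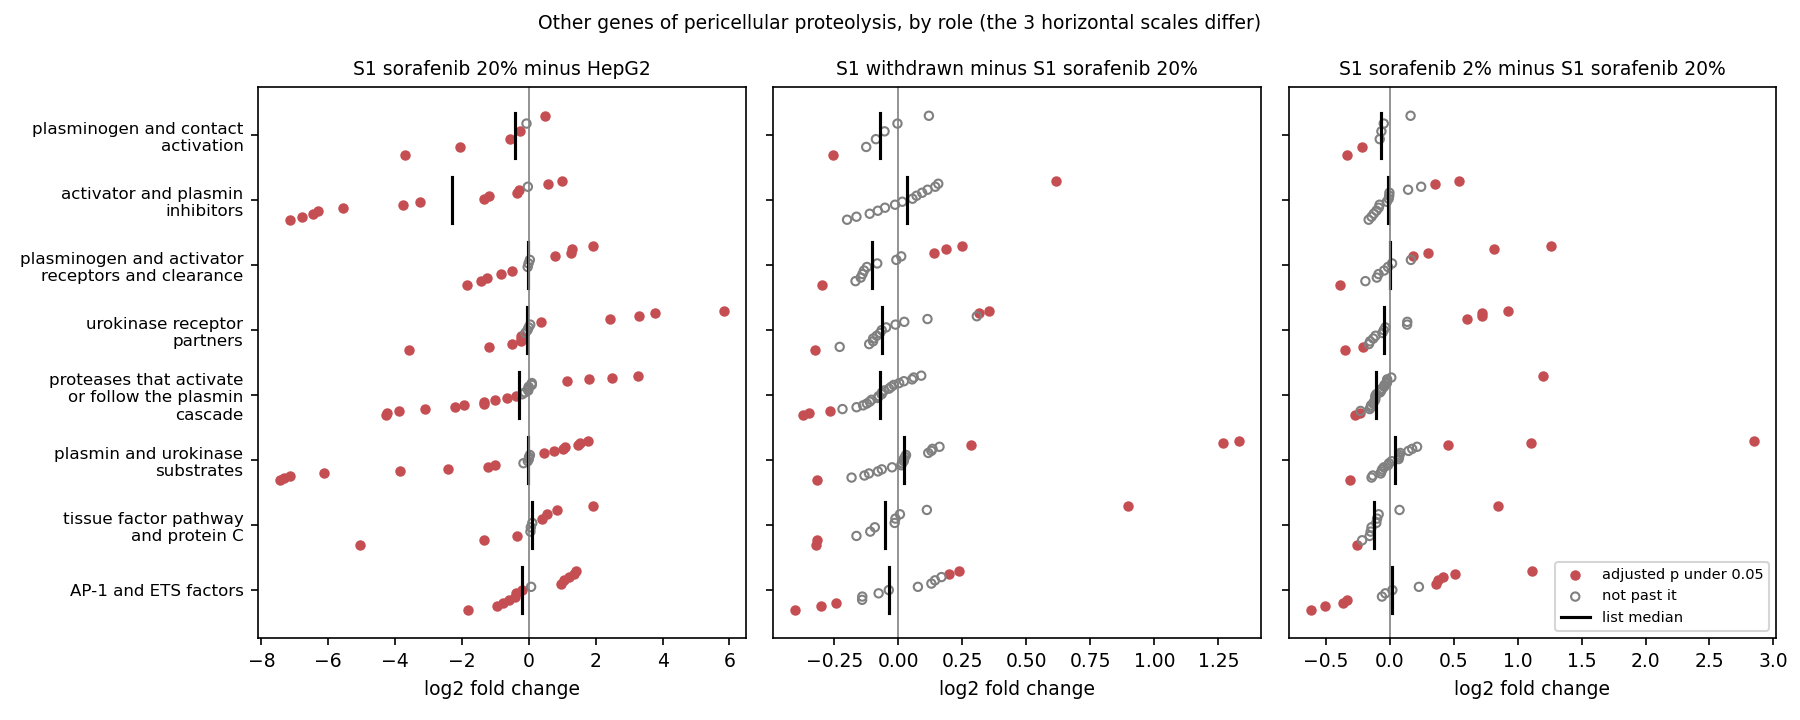
Log2 fold changes (horizontal axes, on scales that differ between panels) of the other pathway genes, 1 point a gene, grouped by role; red points passed an adjusted p of 0.05, open points did not, and black bars are list medians. In the left panel the inhibitors have a median of -2.30, and in the middle and right panels every list has a median between -0.13 and 0.04.

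The withdrawal comparison addresses what 72 h without the drug changes in HepG2S1. None of the 5 members passed the test, and single genes around them did. THBS1, thrombospondin-1, a matrix protein that plasmin cleaves, rose by 1.27 ± 0.08 and F3 by 0.90 ± 0.08 on the log2 scale. IGFBP3, which carries insulin-like growth factors and is cleaved by plasmin, averaged 10.19 ± 0.08 (SD, n = 3) in withdrawn cells and 8.86 ± 0.05 (SD, n = 4) in cells with the drug.

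The list counts stand against 10.1% of all genes called higher and 7.90% lower. Of 12 receptors 3 were higher and 1 lower, and without replicate 2 or 3 of the withdrawn group 1 was higher. Of 15 receptor partners 2 were higher and 1 lower, and of 20 substrates 3 were higher and 1 lower. Of 22 proteases 0 were higher and 3 were lower, the lysosomal cathepsins CTSB (-0.37 ± 0.06), CTSD (-0.35 ± 0.05) and CTSL (-0.27 ± 0.05); CTSB can activate pro-urokinase. Of 14 inhibitors 1 was higher, SERPINB8, an intracellular serpin, at 0.62 ± 0.07. S100A10 rose by 0.25 ± 0.06, EGFR by 0.35 ± 0.05 and ITGA5 by 0.31 ± 0.08, the last not without replicate 1 of the withdrawn group (limma, adjusted p = 0.0607). ITGA3 was at -0.33 ± 0.05 and MRC2 at -0.30 ± 0.07. Plasminogen and contact activation had 0 higher and 1 lower of 6, and tissue factor and protein C 1 higher and 2 lower of 10. AP-1 and ETS factors, listed with SP1 and RELA, had 2 higher and 3 lower of 13, with FOSL2 at 0.24 ± 0.05 and FOSB at -0.40 ± 0.08. With single arrays left out or other settings, 1 to 5 of that list were higher. List medians were between -0.10 and 0.04 against -0.02 for all genes. Of 10 fibroblast and stellate markers 2 were higher and 1 lower on withdrawal, with DCN and LUM at 0.82 ± 0.07 and 0.73 ± 0.14, ACTA2 at -0.35 ± 0.06 and a list median of -0.06, and the list averaged 8.30 to 8.31 on the withdrawn arrays and 8.20 to 8.25 with the drug. Of 4 squamous markers 2 were higher, KRT5 at 0.79 ± 0.06 and SERPINB5 at 0.29 ± 0.06, and of 5 leukocyte markers CD68 was lower (-0.55 ± 0.06). The part of these markers in the values above was not tested.

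The comparison of 2% with 20% O2, both with the drug, addresses the response to low oxygen. Next to PLAUR, LRP1 and several partners of the receptor rose, against 8.99% of all genes called higher and 6.17% lower. LRP1 averaged 10.92 ± 0.16 (SD, n = 3) at 2% O2 and 9.66 ± 0.04 (SD, n = 4) at 20% O2, a rise of 1.26 ± 0.07 (SE; limma, adjusted p = 1.71e-08). Among 15 partners of the receptor 4 rose and 2 fell: ITGA5 rose by 0.92 ± 0.08, ITGB2, a leukocyte integrin chain, by 0.72 ± 0.06, EGFR by 0.72 ± 0.05 and CAV1 by 0.60 ± 0.11, while VTN was at -0.36 ± 0.08.

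Of 12 receptors 4 rose and 1 fell, among them VLDLR at 0.82 ± 0.09 and S100A10 at 0.29 ± 0.06, with LRP8, another lipoprotein receptor, at -0.39 ± 0.05. ANXA2, the partner of S100A10, was at 0.02 ± 0.05 and did not pass (adjusted p = 0.854). Of 14 inhibitors 2 rose, SERPINB8 at 0.54 ± 0.07 and SERPINI1, neuroserpin, an inhibitor of PLAT, at 0.35 ± 0.07. Of 22 proteases 1 rose, PRSS8, the membrane protease prostasin, at 1.20 ± 0.12, and 2 fell. Other settings gave 1 to 5 falls among the proteases, and leaving out single arrays gave 1 to 2. Of 20 substrates 3 rose and 1 fell, and leaving out single arrays gave 0 to 2 falls; IGFBP3 was at 2.85 ± 0.11, CDCP1, a membrane glycoprotein cut by plasmin, at 1.11 ± 0.07 and TGFB1, whose latent form plasmin can activate, at 0.45 ± 0.08.

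PLG was at -0.34 ± 0.10 (limma, adjusted p = 0.0294), with a mean of 5.48 at 2% O2 that lies below 5.76, and leaving out single arrays raised its adjusted p to as much as 0.124. It was 1 of 2 falls among 6 genes of its list, where single arrays left out gave 0 to 2 falls. F3 rose by 0.85 ± 0.08, the 1 rise among 10 genes of the tissue factor list, and PROCR was the 1 fall (-0.26 ± 0.06), a call lost without replicate 1 or 2 of the 2% O2 group (limma, adjusted p = 0.0558 and 0.0578). On the list of 13 AP-1 and ETS factors with SP1 and RELA, 5 rose and 4 fell. JUN, a subunit of AP-1, was at 1.11 ± 0.08, ETS1 at 0.51 ± 0.07, FOSB at -0.51 ± 0.08 and ETV4 at -0.62 ± 0.07. JUN averaged 9.88 at 2% O2, 8.77 in HepG2S1 with sorafenib at 20% O2 and 9.72 in HepG2. Its mean in HepG2S1 with sorafenib at 20% O2 thus lay below that in HepG2, unlike that of PLAUR. That list of 13 had the highest share of calls among the pathway lists, against 8.99% higher and 6.17% lower of all genes. The calls went in both directions, and the list median was 0.02 against -0.03 for all genes. Of the 10 fibroblast and stellate markers 2 were higher at 2% O2 and 0 lower, with DCN up by 0.52 ± 0.07, and the list averaged 8.25 to 8.29 at 2% O2 and 8.20 to 8.25 at 20% O2. Their part was not tested.

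The genes whose profiles came closest to those of the members were taken by the smallest root mean square difference over the 13 arrays, each profile set to its own mean. For PLAUR they were ITGB4, an integrin chain of hemidesmosomes (0.072 on the log2 scale, Pearson r = 0.998), TMEM107 (0.0971, r = 0.995) and DYNC2I1 (0.114, r = 0.993). For SERPINE2 they were KRT18, a keratin of simple epithelium (0.0832, r = 0.974), NQO1, a quinone reductase (0.0856, r = 0.978), and LSS, lanosterol synthase (0.0858, r = 0.975). PLAU came closest to TAMALIN (0.0516), KALRN (0.0522) and LIMD2 (0.056), PLAT to HSPA8 (0.0597), LYPLA1 (0.0599) and HSP90AB1 (0.0644), and TFPI2 to HSD11B2 (0.0734), SLC25A21 (0.0803) and PSMB9 (0.0871). The arrays share groups and the difference between the lines, and these values are descriptions.

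Over the 10 HepG2S1 arrays alone, other genes came closest. PLAUR was then nearest to GADD45B, a stress-inducible gene (0.0509, r = 0.983), TPBG (0.0542, r = 0.973) and RAP2A (0.0544, r = 0.980), and SERPINE2 to SLIRP (0.0454), BZW2 (0.0482) and CTNNAL1 (0.0552). PLAU was nearest to SMO (0.0285), PLAT to PLEK2 (0.0341) and TFPI2 to DUSP8 (0.0438); the SD of these 3 members over the 10 arrays was 0.0952, 0.107 and 0.0959.

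**Figure D4:**
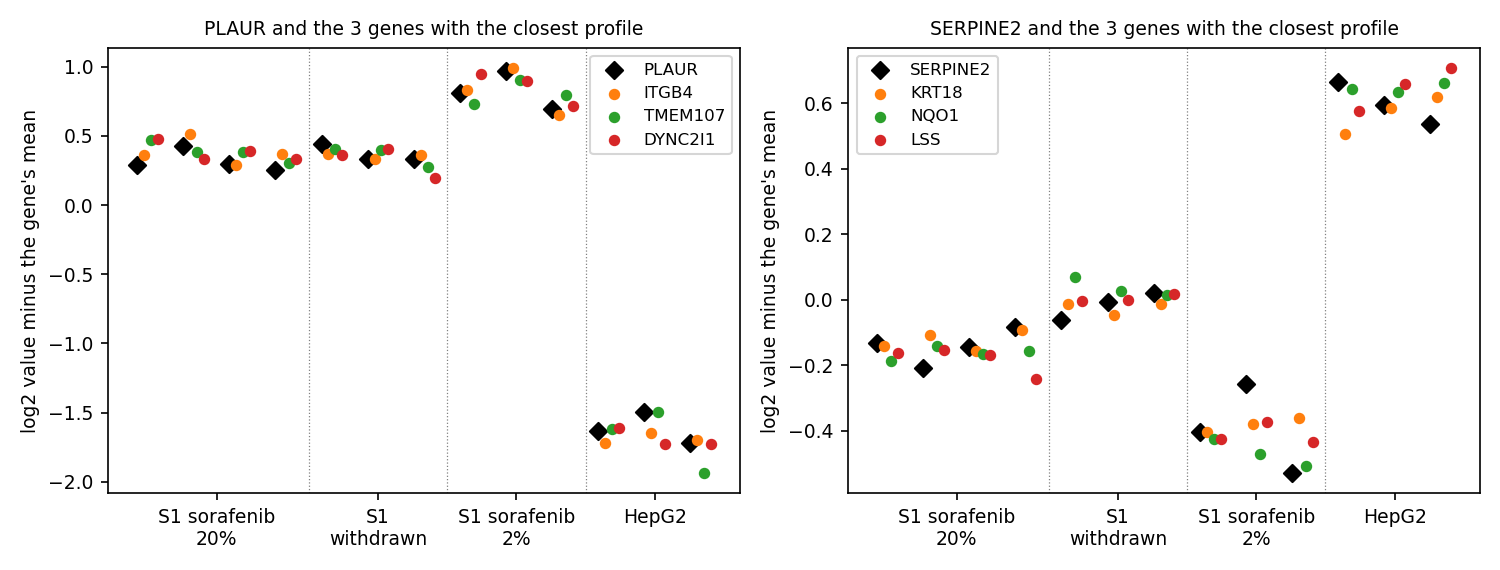
Log2 value minus the gene's own mean over the 13 arrays (vertical axis) for PLAUR (left) and SERPINE2 (right), black diamonds, and the 3 genes closest to each, coloured dots, with 1 column an array and dotted lines between groups. PLAUR and its 3 neighbours are highest on the 2% O2 arrays and lowest in HepG2, and SERPINE2 and its 3 neighbours the reverse. The neighbours were chosen for closeness over these same arrays, so that a shared order follows from the choice.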

How the data were processed

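RNA of 13 flasks was measured on Affymetrix whole-transcript arrays. The authors deposited 1 table of log2 values, summarised with RMA per the submitters' processing notes; the log2 scale was read from the values, which span 2.68 to 14.45. The RMA version is not given in the sources used here. RMA compresses low signals, which shrinks folds near the floor. The labels name no batch, and none was tested.

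Of 28926 rows, 19310 had 1 gene symbol in the platform annotation, 1752 several and 7864 none. Entrez IDs linked 19279 of these rows to current RefSeq symbols (GRCh38.p14). For the 685 genes with more than 1 row, only the brightest row on average was used. Promoter windows are from RefSeq, and windows of 4 members matched by symbol.

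A single limma 3.58.1 fit (lmFit, eBayes; R 4.3.3) over the 4 groups gave all comparisons, adjusted by Benjamini-Hochberg over 18377 genes within each. It was tested on simulated data. The members and lists were chosen with earlier results of these data known. Genes named from a list were up to 4 per comparison with the largest change among those called, plus a few central pathway genes; lists had 6 to 22 measured genes, and listed genes with no row of their own were not analysed here. The fit was repeated with each array left out, on fewer groups (those compared, or HepG2S1 alone), on all rows or on row means, without genes under the 33rd percentile, after scaling to the 75th percentile or a second quantile normalization, with array weights, with a robust trended prior, and at an adjusted p of 0.01. Figures used matplotlib 3.10.9 under Python 3.11.15.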

Additional observations from a re-analysis of the deposited data

Results flagged for a closer look

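One array lay apart from the other 3 in HepG2S1 with sorafenib at 20% O2, the only group large enough to be looked at in this way, for 7 of 82 genes; about 1 in 20 would be set apart by chance. PLAU was at 6.86 on 1 array and at 7.03 to 7.05 on the others, and without that array its call against HepG2 held. CDCP1 was at 8.84 on 1 array against 8.90 on the others, TGFB1 at 9.80 against 9.93 to 9.94, and PROCR at 9.04 against 9.28 to 9.30. KDR was at 5.49 against 5.73 to 5.78, F2 at 6.51 against 6.42 to 6.43, and KRT5 at 7.97 against 7.88 to 7.89.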

How the results depend on the processing

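Of 30 member results, 27 kept their side of the threshold under all their alternatives, and no called value changed sign. Values near 0 did: PLAU on withdrawal (-0.02) reached 0.027 and TFPI2 (-0.049) reached 0.001 with an array left out. PLAT in HepG2S1 with sorafenib against HepG2 (-0.205) missed an adjusted p of 0.01 in limma (0.0105) and ranged from -0.227 to -0.173 with arrays left out, its call lost without HepG2 replicate 1. SERPINE2 at 2% against 20% O2 (-0.254) missed 0.01 as well (0.0148) and ranged from -0.324 to -0.187, its call lost without replicate 1 or 3 of the 2% O2 group. PLAT at 2% O2 against withdrawal passed at -0.216 with 75th percentile scaling, at -0.167 with array weights and at -0.186 without low genes, and ranged from -0.232 to -0.135, passing without replicate 3 of the 2% O2 group. The cause was not tested.

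Counts over all genes moved more. Array weights called 2861 genes higher and 2370 lower on withdrawal, 2227 lower at 2% against 20% O2 and 2453 lower at 2% O2 against withdrawal; 75th percentile scaling called 2345 lower at 2% against 20% O2. An adjusted p under 0.01 left 1123 higher and 847 lower on withdrawal, 926 and 372 at 2% against 20% O2, and 1261 and 788 at 2% O2 against withdrawal. With arrays left out, genes at 2% against 20% O2 ranged from 1077 to 1832 higher and from 521 to 1378 lower, the fewest without replicate 2 of the 2% O2 group. Counts of the pathway lists moved by over 1.5 times, or to or from 0, in 98 of 1088 alternatives. No paired analysis was possible because the labels give the groups no shared replicate numbers. The small number of arrays and signals near the floor limit the precision.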
